A study of Homo sapiens with 12 samples.

Results

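The genes for replication-dependent and linker histones are described here across 12 RNA libraries. Members were all genes whose symbol fits the current naming of the clustered histone genes (H2AC, H2BC, H3C and H4C with a number) or of the H1 family, and 60 of the 18665 genes in the deposited tables did so. They comprised 9 H1, 13 H2A, 15 H2B, 12 H3 and 11 H4 genes. The study asked how ALDH1A1 and ZBTB7B act on the metabolism and the immune evasion of tumor cells, and its libraries are labelled HT29, a human colon cancer cell line. CM10 is an inhibitor of the ALDH1A family of aldehyde dehydrogenases, and the 3 CM10 libraries had 3 controls of their own (CTRL_CM10). The 3 shZBTB7B libraries carried a short hairpin RNA against ZBTB7B, a zinc finger transcription factor, and they too had 3 controls (CTRL_shZBTB7B). Levels are in TPM, a length-corrected share of each library scaled to the same total. The dose and the duration of CM10, the sequence of the human hairpin and the vehicle or vector of the controls are not in the labels. Nothing in the labels tells whether the replicates of a group were separate cultures, so the p-values rest on the variation among these libraries alone, and that variation may be technical.

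Histones are the proteins around which DNA is wound. Core histones H2A, H2B, H3 and H4 form the nucleosome, and linker histone H1 binds where DNA enters and leaves it. Most core histone genes lie in clusters, have no introns and are transcribed during S phase, when new DNA must be packed. Their mRNAs end in a conserved stem-loop instead of a poly(A) tail. The stem-loop is bound by SLBP, and the U7 small nuclear ribonucleoprotein guides the cut that forms the end. Some histone genes can also make a longer, polyadenylated mRNA, which is seen in cells that have left the cell cycle. H1-10 is a linker histone made outside S phase from a polyadenylated mRNA.

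The sequence that most members share is the stem-loop, and it is shown for the members on which the results turn. Its letters were taken as the run of 16 bases, with 6 bases at each end that can pair, found in most members in the 200 bases after the stop codon, and this was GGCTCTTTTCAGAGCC. These letters were then searched in the same stretch, on the strand of the mRNA only, with up to 3 mismatches. Gene models were those of GENCODE lifted to GRCh37, the build of the study, and 57 of 60 members were matched to one. Only protein-coding transcripts were used. The stem-loop was found in 53 members. Other genes were counted for the exact letters only. Its exact letters stood in 31 members and in 0 other genes, or in 0.17% of the 17945 genes searched. The form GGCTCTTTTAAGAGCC was found in 7 members, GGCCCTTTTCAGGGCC in 6 and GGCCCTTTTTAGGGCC in 4, and 5 further forms in 1 member each. The distance from the stop codon to the stem-loop ranged from 22 to 67 bases. Capitals mark the stem-loop in these 26-base stretches, and coordinates are in GRCh37.
H1-2 (chr6:26055967-26055992, minus strand): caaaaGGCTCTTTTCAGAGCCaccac
H2AC6 (chr6:26124892-26124917, plus strand): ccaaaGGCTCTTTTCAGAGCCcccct
H2AC18 (chr1:149813785-149813810, minus strand): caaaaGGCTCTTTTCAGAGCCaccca
H2BC12 (chr6:27114140-27114165, minus strand): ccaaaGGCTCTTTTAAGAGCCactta
H2BC5 (chr6:26158810-26158835, plus strand): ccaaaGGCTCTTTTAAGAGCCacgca
H3C4 (chr6:26197012-26197037, minus strand): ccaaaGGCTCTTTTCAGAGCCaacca
H4C8 (chr6:26285354-26285379, minus strand): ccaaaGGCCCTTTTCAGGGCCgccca
H4C14 (chr1:149804591-149804616, plus strand): ccaaaGGCCCTTTTTAGGGCCgacca
H4C15 (chr1:149832330-149832355, minus strand): ccaaaGGCCCTTTTTAGGGCCgacca

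No match was found in H1-7, H1-8 and H1-10. For H1-10, which had a value above 0 in all 12 libraries, the letters AATAAA of the common polyadenylation signal lay 16 bases before the annotated end of the mRNA. This stretch is shown with the signal in capitals. AATAAA was found in the last 40 bases of 61.5% of all genes, so its presence is not particular to H1-10.
H1-10 (chr3:129033620-129033645, minus strand): ttttgggcacAATAAAgcgtttaaac

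Several facts of the libraries bear on all values. Depth is unknown, since TPM keeps none, and the number of genes above 0 ranged from 8493 in CM10 replicate 2 to 16245 in CTRL_shZBTB7B replicate 3. With depth unknown, a 0 cannot be read as absence. PCNA, a replication factor that dividing cells use, was listed at 0 in CM10 replicates 2 and 3 and in shZBTB7B replicate 3. Whether the cells of these libraries were dividing was not tested. The labelled cell type was poorly borne out by markers. CDX2, a transcription factor of intestinal epithelium, was listed at 0 in 8 of the 12 libraries. KRT8, of the same list of markers, was above 0 in all 12, at 13.06 to 1095.15 TPM. The 17 colon epithelial markers summed to between 49.5 and 2360.6 TPM. The 13 gastric markers in the tables summed to 85179.9 TPM in CTRL_CM10 replicate 3 and 83672.4 in shZBTB7B replicate 2, and 7 smooth muscle markers summed to 67419.8 TPM in CTRL_shZBTB7B replicate 2. Leukocyte markers, 12 in number, summed to between 187.0 and 6905.8 TPM. MTRNR2L genes, nuclear near-copies of a mitochondrial ribosomal RNA, made up 73.82% of TPM in CTRL_CM10 replicate 2, 45.98% in replicate 3 and 29.9% in shZBTB7B replicate 2, against 0.28% to 10.41% elsewhere. ZBTB7B, the target of the hairpin, was at 2.55, 5.97 and 0 TPM in shZBTB7B replicates 1 to 3 and at 22.34, 25.06 and 25.36 in their controls, which did not overlap (limma adjusted p = 0.05798). ALDH1A1 was at 6.95, 11.14 and 12.67 TPM in CM10 and at 110.10, 110.22 and 171.95 in CTRL_CM10.

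Few histone genes had a value above 0 in most libraries, and 1 control library held nearly all of them. CTRL_CM10 replicates 1 to 3 had 14, 12 and 12 of the 60 members above 0, and CM10 replicates 1 to 3 had 6, 4 and 3. The hairpin experiment gave 25, 28 and 55 members in CTRL_shZBTB7B and 9, 11 and 7 in shZBTB7B. In both experiments the count was thus lower in each perturbed library than in any of its controls. The number of all genes above 0 was also lower there, at 8493 to 13051 against 13237 to 14627 with CM10 and at 9597 to 14354 against 15969 to 16245 with the hairpin. H1-6, H2AC13 and H2BC17 were listed at 0 in all 12 libraries, as were 3.3% of all genes, and H1-10 was above 0 in all 12, as were 25.1% of all genes.

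**Figure D1:**
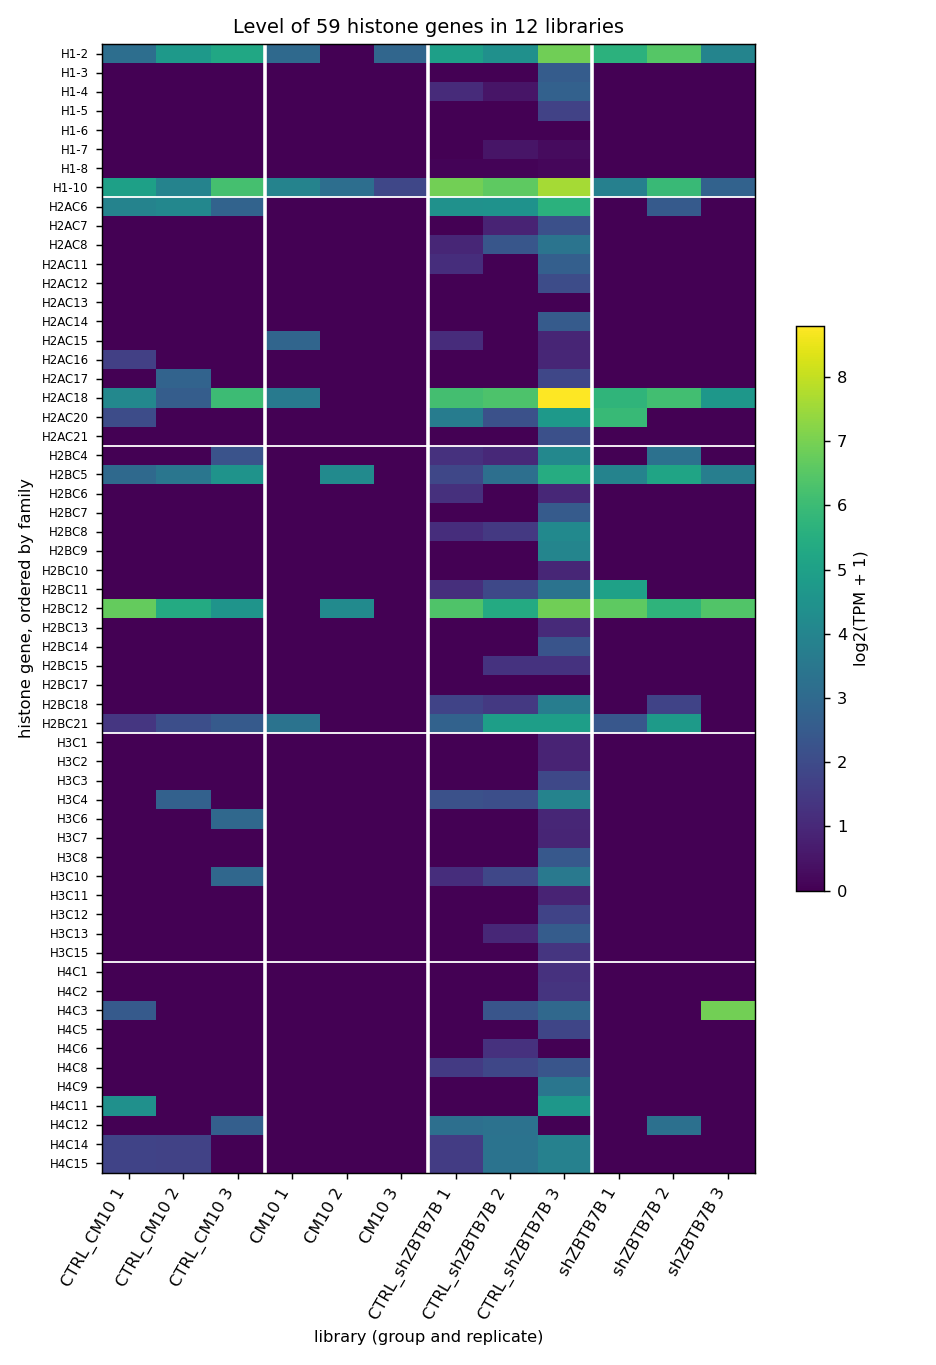
Level of 59 histone genes (rows, grouped by family) in each of the 12 libraries (columns, by group and replicate), as log2(TPM + 1) from dark (0) to bright. In the column of CTRL_shZBTB7B replicate 3, 22 genes stand above 0 that are at 0 in every other column, and the 3 CM10 columns are dark for most genes.

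Members are short genes, so they were set beside other genes with short mRNAs. Of the members, 47 had an annotated mRNA of at most 1000 bases, as had 970 other genes. In CTRL_CM10 the share above 0 was 12.8% to 21.3% of these members and 53.6% to 57.0% of the other short genes. In CM10 it was 2.1% to 6.4% and 22.8% to 44.7%, and in shZBTB7B it was 10.6% to 14.9% and 35.9% to 57.3%. CTRL_shZBTB7B replicates 1 and 2 had 36.2% and 38.3% of the members above 0 and 65.1% and 64.9% of the other short genes. CTRL_shZBTB7B replicate 3 had the opposite order, with 91.5% of the members and 69.4% of the other short genes. The histone genes were thus seen less often than other short genes in 11 libraries and more often in 1. Short mRNAs of different genes are not independent replicates, and no test was made. The smallest member value above 0 was 0.05 to 0.10 TPM in the 3 CTRL_shZBTB7B libraries and 1.64 to 7.90 TPM in the other 9. The smallest value in the CTRL_shZBTB7B libraries was that of H1-8 in each, and it is not a detection limit.

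**Figure D2:**
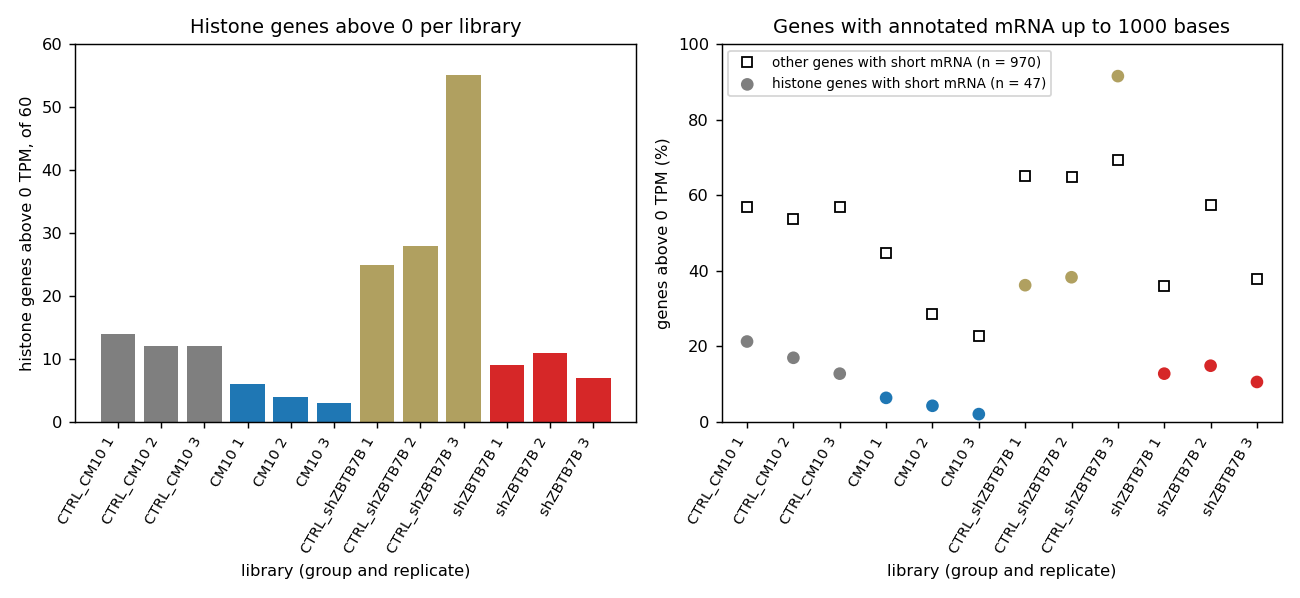
Left, number of histone genes above 0 TPM in each library, of 60. Right, percent above 0 among 47 histone genes (filled circles) and 970 other genes (open squares) whose annotated mRNA is at most 1000 bases, where the circle lies above the square only in CTRL_shZBTB7B replicate 3.

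The families differed in how widely they were seen. H3 and H4 genes, whose products form the central tetramer of the nucleosome, were scarce. Of 12 H3 genes, 0 were above 0 in any CM10 or shZBTB7B library, 3 in CTRL_CM10 and 12 in CTRL_shZBTB7B. Of 11 H4 genes, 0 were above 0 in CM10, 2 in shZBTB7B, 5 in CTRL_CM10 and 11 in CTRL_shZBTB7B. H2A genes numbered 2, 3, 5 and 12 of 13 in the same order of groups, and H2B genes 3, 6, 4 and 14 of 15. Linker histones numbered 3 of 9 in each of CM10, shZBTB7B and CTRL_CM10, H1-2 and H1-10 among them, while 8 of 9 were above 0 in CTRL_shZBTB7B. The CTRL_shZBTB7B counts rest largely on replicate 3, where 8 of the 12 H3 and 4 of the 11 H4 genes were above 0 and in no other library. Replicates 1 and 2 of that group had 2 and 3 H3 genes and 4 and 6 H4 genes above 0. The same count by group was not made for all genes.

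CTRL_shZBTB7B replicate 3 stood apart for histone genes. Of the members, 22 were above 0 in this library and in no other, against 1.2% of all genes. Summed over the members it had 1352.6 TPM, where replicates 1 and 2 of its group had 451.2 and 554.7. Most of the excess was in core histones, which summed to 944.7 TPM against 222.8 and 238.5, or 4.10 times the mean of replicates 1 and 2. H2AC18 alone gave 32.7% of the summed level in this library. Within the 3 controls, 50 of 57 members had their highest value in replicate 3, as did 39.1% of all genes. All 12 H3 genes were above 0 there, with a median of 2.02 TPM, and 14 of 15 H2B genes, with a median of 9.26 TPM.

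Genes of dividing cells were also high in that library. MKI67, a marker of cycling cells, was at 19.03 TPM there and at 2.30 and 0.19 in replicates 1 and 2. The 48 S-phase genes summed to 1307.9 TPM against 518.9 and 398.3, and 24 genes of G2 and mitosis to 961.3 TPM against 104.7 and 21.8. Colon epithelial markers summed to 2360.6 TPM against 76.5 and 63.0, and EPCAM, an epithelial adhesion molecule, was at 192.33 TPM against 2.76 and 2.00. Most of the 2360.6 TPM was from the keratin genes KRT8, KRT18 and KRT19, at 1095.15, 615.15 and 334.59 TPM. CDX2, FABP1 and GUCY2C of the same list were listed at 0 in CTRL_shZBTB7B replicate 3, so the sum does not show colon epithelium in particular. Leukocyte markers summed to 6905.8 TPM against 3043.6 and 187.0. Smooth muscle markers were low, at 437.3 TPM against 11246.7 and 67419.8. A high S-phase sum was also seen where few core members were above 0. It was 1226.3 TPM in CM10 replicate 2, with 2 of 51 core members, and 1063.0 in shZBTB7B replicate 3, with 4 of 51. There POLA2, TIPIN and RFC2 gave most of it, and genes of G2 and mitosis summed to 27.4 and 77.3 TPM. The part of any of these genes or markers in the histone levels of CTRL_shZBTB7B replicate 3 was not tested.

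The summed level of the core members was set against that of 17 core histone genes outside the symbol rule, listed here as variants. When in the cell cycle the genes of this list are made was not tested. Core members gave 30.61% of the sum of both in CTRL_shZBTB7B replicate 3 and 12.21% and 13.47% in replicates 1 and 2. The share was 12.02%, 12.58% and 16.23% in CTRL_CM10 and 9.37%, 13.47% and 0% in CM10, so CM10 replicates 1 and 3 lay below every control and replicate 2 lay within their range. It was 24.23%, 15.99% and 32.00% in shZBTB7B. H4C3 gave 42.9% of the members' level in shZBTB7B replicate 3, with 120.37 TPM, and was listed at 0 in the other replicates of that group.

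Members were also described by the form of their annotated 3′ end. The class was defined after the values had been seen, and it is a description without a test. In 42 members no annotated protein-coding mRNA reached 100 bases beyond the stem-loop, which is called ending at it. In 11 members such an mRNA had its end at least 100 bases beyond it. Other annotated transcripts of these genes were not used. The median of the mean level over the 12 libraries was 0.356 TPM for members that end at the stem-loop and 2.586 TPM for those with a longer form, and the median number of libraries above 0 was 1 and 4. In at least 6 libraries a value above 0 was found for 2 of the 42 (H1-2 and H2BC12) and for 4 of the 11 (H2AC6, H2AC18, H2BC5 and H2BC21). Among the members without a stem-loop match, H1-10 had a mean of 52.851 TPM, while H1-7, a testis linker histone, and H1-8, the oocyte linker histone, were above 0 in 2 and 3 libraries. These counts of members above 0 in at least 6 libraries were the same without CTRL_shZBTB7B replicate 3.

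**Figure D3:**
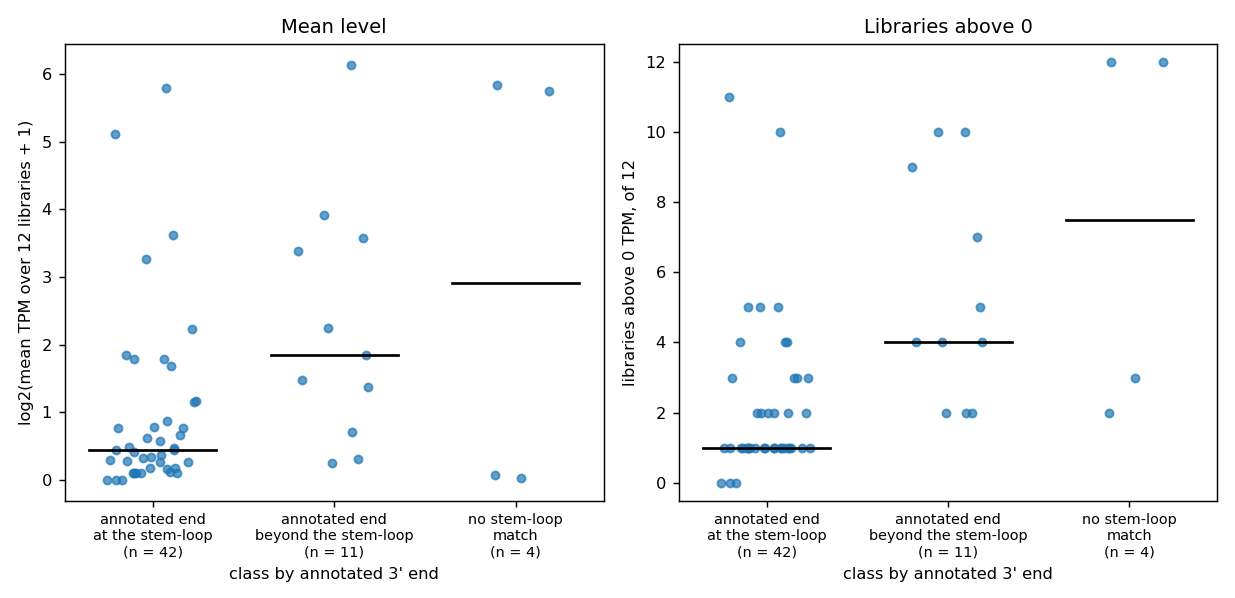
Each point is a histone gene, placed by the form of its annotated 3′ end; left, log2 of its mean TPM over 12 libraries plus 1, and right, the number of libraries in which it was above 0. Lines are medians (1, 4 and 7.5 libraries), and the 42 genes that end at the stem-loop lie mostly at 0 to 5 libraries.

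By position, the major cluster on chromosome 6 (26020679 to 27861669, GRCh37) held 44 members with a median mean level of 0.376 TPM. The cluster on chromosome 1 (149754245 to 149859515) held 9 members with a median of 2.458 TPM, among them H2AC18 and H2BC21. H4C14 and H4C15 had identical values in all 12 libraries, so the pair cannot be told apart and they count as 1 measurement. H2AC18 has a near-identical neighbour, H2AC19, that has no row of its own in the tables, so its level may hold reads of both.

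The first comparison asked which histone genes CM10 changed. Of the members, 8 passed the filter of at least 1 TPM in 3 of the 6 libraries and were tested with limma on log2(TPM + 1). The other 52 were not tested. Of the 8, 3 fell (H2AC6, H2BC12 and H2AC18) and 0 rose. Over all 12529 genes tested, 18.3% fell and 13.6% rose. The median of the 8 members was -2.33 on the log2 scale, and the median of all genes was -1. With so few members tested, a share of 3 in 8 says little about the members as a class.

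H2AC6 encodes a core histone H2A. It was at 14.11, 15.76 and 5.88 TPM in CTRL_CM10 replicates 1 to 3 and was listed at 0 in all CM10 libraries. The groups did not overlap (limma adjusted p = 0.004448), and no fold is given against a group listed at 0. H2AC6 passed the filter only through its 3 controls, so a difference was built into its being tested, as it was for 4.6% of all genes tested.

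H2BC12, a core histone H2B gene on chromosome 6, was at 103.12, 40.48 and 22.16 TPM in the controls and at 0, 17.45 and 0 TPM in CM10. Every CM10 library lay below every control. Its log2 difference was -4.13 (SE 1.12, limma adjusted p = 0.01252), or -3.13 relative to the median of all genes. The call was lost with a pseudocount of 0.1 (adjusted p = 0.05804) and without CTRL_CM10 replicate 1 (adjusted p = 0.07357).

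H2AC18, a core histone H2A gene of the chromosome 1 cluster, was at 16.15, 5 and 64.42 TPM in the controls and at 11.25, 0 and 0 TPM in CM10. The groups overlapped, since CM10 replicate 1 lay above CTRL_CM10 replicate 2. Its log2 difference of -3.03 (SE 1.12) passed narrowly (limma adjusted p = 0.04608). It did so no longer after quantile normalization, without the filter, with a pseudocount of 0.1, or without CTRL_CM10 replicate 1 or 3 or CM10 replicate 2 or 3 (adjusted p from 0.07568 to 0.1715).

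The linker histone genes H1-10 and H1-2 did not pass. H1-10 was at 31.07, 14.41 and 73.22 TPM in controls and at 14.29, 8.03 and 2.62 TPM in CM10 (log2 difference -2.07, SE 0.96, limma adjusted p = 0.09806). H1-2, an S-phase linker histone chosen for its level after its values were seen, was at 8.14, 25.43 and 37.09 TPM in controls and at 7.08, 0 and 6.56 TPM in CM10 (-2.41, SE 1.01, adjusted p = 0.07093). For both genes the 3 CM10 libraries lay below the 3 controls. Groups did not overlap, with CM10 lower, for 5 of the 8 members tested and for 28.9% of all genes tested, and with CM10 higher for 0 of the 8 and 18.5% of all genes. H2AC6, which passed the filter only through its controls, is among the 5.

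H2BC5 and H2BC21 overlapped between the groups. H2BC5, an H2B gene, was at 6.98, 10.06 and 21.67 TPM in controls and at 0, 17.31 and 0 TPM in CM10 (log2 difference -2.26, SE 1.08, limma adjusted p = 0.1067). H2BC21 was at 1.64, 3.34 and 4.63 TPM in controls and at 9.29 TPM in CM10 replicate 1, and it was listed at 0 in the others. H3 and H4 genes could not be tested, because none reached 1 TPM in 3 libraries. Among them H3C4 was at 5.57 TPM in CTRL_CM10 replicate 2, H3C10 at 6.64 TPM in replicate 3, and H4C11 at 20.29 and H4C3 at 4.63 TPM in replicate 1. Each of these 4 was listed at 0 in the other controls and in all CM10 libraries.

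The calls depended on scaling and on single libraries. After the MTRNR2L genes had been removed and the libraries rescaled, 7 of the 8 members were called lower, with 54.9% of all genes called in either direction, against 3 of 8 and 31.9% with the values as deposited. No member was called without CTRL_CM10 replicate 1 (4 of 7 at an unadjusted p under 0.05 in limma), where 18.9% of all genes were called. Without CTRL_CM10 replicate 3 it was 1 member and 17.4% of all genes, and without CM10 replicate 1 it was 6 members and 50.7% of all genes. All the members called in these fits were lower with CM10.

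**Figure D4:**
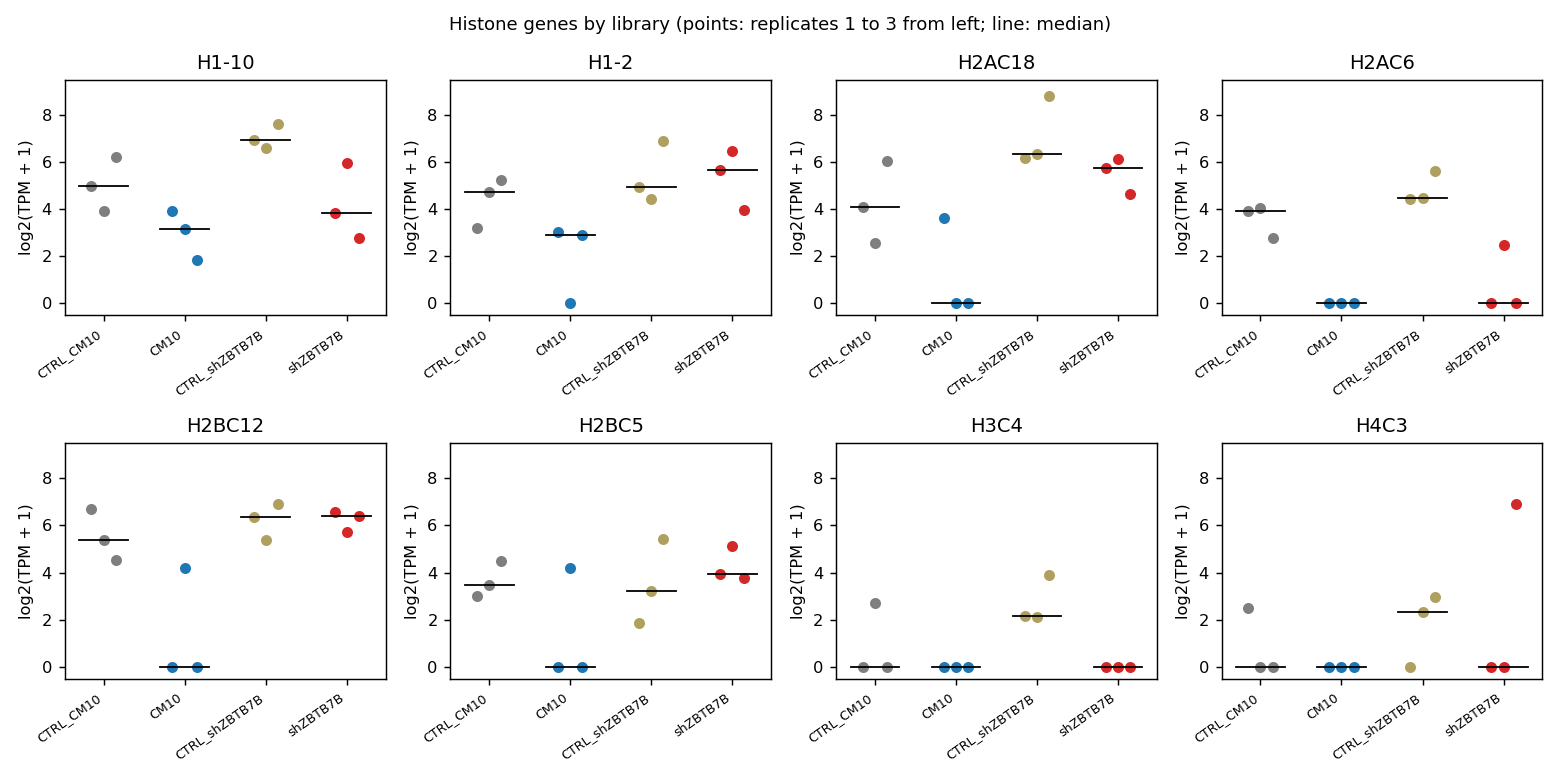
Level of 8 histone genes as log2(TPM + 1) in each library of the 4 groups; points are replicates 1 to 3 from left to right and lines are group medians. H2AC6 lies at 0 in all CM10 libraries, and H2BC12 lies between 51.64 and 95.55 TPM in the shZBTB7B libraries, within the range of their controls.

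The second comparison asked which histone genes differed with the hairpin against ZBTB7B. Here 20 members were tested and 40 were not. Of the 20, 5 fell (H4C8, H3C4, H4C14, H4C15 and H2AC6) and 0 rose, where 11.0% of all 13665 genes tested fell and 0.717% rose. H4C14 and H4C15 are 1 measurement, so 4 separate measurements fell. The median of the 20 members was -1.77 and that of all genes -1.45. Of the 20 members, 6 passed the filter only through their controls, against 4.9% of all genes tested, and 4 of the 5 calls were among these 6. Their calls thus partly follow from how genes entered the test, and no count of them is given as support.

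H4C8 had 1.81, 2.62 and 3.97 TPM in the 3 CTRL_shZBTB7B libraries (limma adjusted p = 0.03853). H3C4 was at 3.48, 3.36 and 14.09 TPM (adjusted p = 0.04037), and H4C14 and H4C15 were each at 1.96, 9.20 and 13.60 TPM (adjusted p = 0.04054 for each). All were listed at 0 in the 3 shZBTB7B libraries, and no fold is given. The smallest member value above 0 in shZBTB7B replicates 1 to 3 was 4.27, 2.43 and 5.82 TPM, and each control value of H4C8 lay below 4.27 TPM. Whether such a level would have been registered there was not tested. H4C8, H3C4, H4C14 and H4C15 are genes for the H3 and H4 of new nucleosomes, and their annotated protein-coding mRNAs end at the stem-loop. The annotated spans of the genes H4C8, H4C14 and H4C15 reach beyond it. H3C10 and H2BC8 likewise had values in the 3 controls and were listed at 0 in shZBTB7B, and did not pass. H3C10 was at 1.24, 2.70 and 10.83 TPM in the controls (adjusted p = 0.05383).

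A value of 0 with the hairpin was then counted by control level. At a control mean of 1 to 10 TPM, 21 of 26 members (80.8%) were listed at 0 in all shZBTB7B libraries, against 11.4% of all genes in that range. Of these 26 members, however, 10 were above 0 in control replicate 3 alone, so their other controls were also at 0, and 1.6% of all genes in the range were above 0 in 1 control only. Among those above 0 in all 3 controls, 8 of 11 members (72.7%) and 9.4% of all genes were at 0 with the hairpin. H4C14 and H4C15, which are 1 measurement, count separately in the 8 and the 11. Each of the 11 members had its highest control value in replicate 3, as did 39.1% of all genes above 0 in these controls. That library thus raised the control means of the 11, and the shares do not compare like with like. The smallest member values above 0 in shZBTB7B replicates 1 to 3 were 4.27, 2.43 and 5.82 TPM, within this range of control means. With CM10, at a control mean of 1 to 10 TPM, 11 of 12 members (91.7%) and 12.8% of all genes were at 0 throughout. However, 9 of the 12 were above 0 in 1 control only, as were 5.1% of all genes. The 1 member above 0 in all 3 controls was not at 0 throughout in CM10. At a control mean above 10 TPM, 0 of 9 members were listed at 0 throughout in shZBTB7B and 1 of 7 in CM10. Members of low level are short, and the part of length in these shares was not tested.

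H2AC6 was at 20.78, 21.39 and 48.38 TPM in the controls and at 0, 4.64 and 0 TPM in shZBTB7B. The groups did not overlap, and the log2 difference was -4.02 (SE 0.97, limma adjusted p = 0.04266), or -2.57 relative to the median of all genes. It was the only member called in both comparisons. With CM10 a difference was built into its being tested, so the calls do not support each other. It did not pass after quantile normalization (-3.10, adjusted p = 0.1659), with a pseudocount of 0.1 (-6.27, adjusted p = 0.08926), without the filter (adjusted p = 0.0764) or without MTRNR2L genes (adjusted p = 0.0612). Nor did it pass without any 1 library other than shZBTB7B replicate 2, where the difference was -3.60 to -4.22 (adjusted p from 0.09572 to 0.1975).

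H2AC18, H2BC12, H2BC5 and H4C3, the core histone genes of highest mean level over the 12 libraries, did not pass. Some of these stood as high with the hairpin as in the controls. H2BC12 was at 95.55, 51.64 and 83.79 TPM in shZBTB7B and at 81.11, 40.19 and 118.38 TPM in the controls (log2 difference 0.03, SE 0.70, limma adjusted p = 0.9756). H2BC5 was at 14.21, 34.19 and 12.68 TPM against 2.63, 8.23 and 42.00 TPM (0.78, SE 1.04, adjusted p = 0.5742). H2AC18 was at 52.82, 68.56 and 23.96 TPM, below the 70.75, 79.91 and 441.88 TPM of the controls (-1.59, SE 0.89, adjusted p = 0.2028). H4C3, an H4 gene, was at 0, 0 and 120.37 TPM against 0, 4.02 and 6.77 TPM (0.55, SE 1.81, adjusted p = 0.8294), so 1 library sets its difference. H4C11 was at 23.96 TPM in CTRL_shZBTB7B replicate 3 and listed at 0 in the other 5 libraries. A p above the threshold does not show equal levels, and for H2BC12 the sign of the difference turned without CTRL_shZBTB7B replicate 2 (-0.39) or without shZBTB7B replicate 1 (-0.15) or 3 (-0.05).

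The linker histone gene H1-10 lay lower with the hairpin and did not pass, and H1-2 overlapped its controls. H1-10 was at 13.17, 60.81 and 5.82 TPM in shZBTB7B and at 120.19, 95.74 and 194.84 TPM in the controls (log2 difference -2.86, SE 0.92, limma adjusted p = 0.06508). Every shZBTB7B library lay below every control, and shZBTB7B replicate 2 was the highest of its group. H1-2 was at 49.40, 86.84 and 14.73 TPM against 30.18, 20.54 and 118.10 TPM (-0.07, SE 0.95, adjusted p = 0.9611). Groups did not overlap, with the hairpin lower, for 10 of 20 members and for 42.4% of all genes tested. With the hairpin higher, it was 0 of 20 members and 3.02% of all genes. At an unadjusted p under 0.05, 9 of 20 members were lower in limma, as were 34.9% of all genes. The 6 members that passed the filter only through their controls are in both counts, the 10 and the 9. For them a lower level was built into being tested, as it was for 4.9% of all genes tested. H4C14 and H4C15, which are 1 measurement, count separately in both.

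These calls rested on few libraries. With each library left out in turn, limma called 0 members in 5 of 6 fits (2 to 9 of 12 to 20 members at an unadjusted p under 0.05) and 8 of 19 without shZBTB7B replicate 2, where 51.4% of all genes were called. Without a control replicate, the members that had entered through the 3 controls were no longer tested. In the 5 fits with 0 members, 0% of all genes were called. No member was called after quantile normalization, without the filter or without MTRNR2L genes either. Without CTRL_shZBTB7B replicate 3, in which most members peaked, the median of the 13 members tested was -0.96 and that of all genes -1.37.

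**Figure D5:**
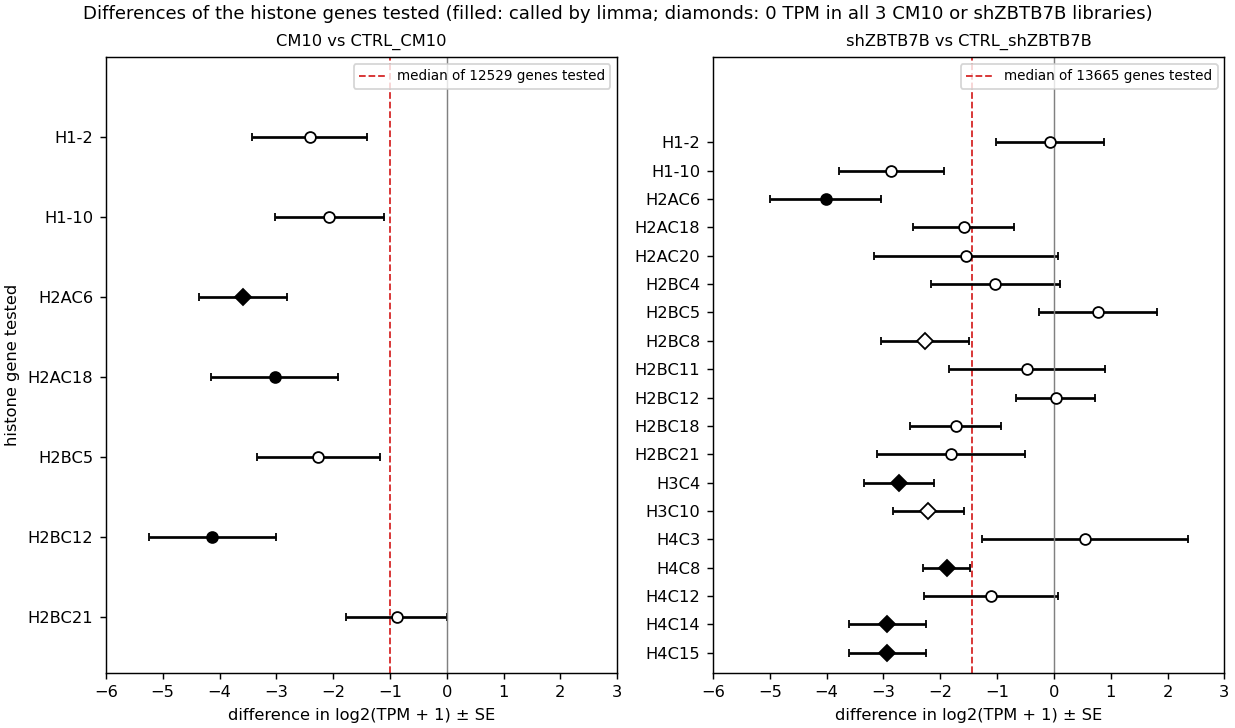
Differences of tested members in log2(TPM + 1) with SE, CM10 minus CTRL_CM10 (left, 7 genes) and shZBTB7B minus CTRL_shZBTB7B (right, 19 genes); filled symbols were called by limma, diamonds were listed at 0 in all 3 perturbed libraries, and the dashed line is the median of all genes tested (-1 and -1.45). The fitted value of a diamond depends on the pseudocount of 1.

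The effect of CM10 was then compared with the effect of the hairpin over the 8 members tested in both. In limma, 0 of the 8 were called, and 0% of the 11937 genes tested were, with 1 member at an unadjusted p under 0.05. That member was H2BC12, with a difference between the effects of -4.17 (SE 1.54, unadjusted p = 0.01535, adjusted p = 0.4652). H2BC12 lay below all its controls in each of the 3 CM10 libraries, and overlapped its controls with the hairpin. H2BC5 had the next largest difference (-3.04, SE 1.62, adjusted p = 0.5443). For H1-10 it was 0.80 (SE 1.40), smaller than its error. The test did not show the effects of the perturbations to differ for any histone gene.

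Genes that make, carry or replace these histones are given by list, beside the 13.6% of all genes that rose and the 18.3% that fell with CM10. With the hairpin 0.717% of all genes rose and 11.0% fell. Of the core histone genes listed as variants, 8 were tested with CM10 and 0 were called in limma (3 at an unadjusted p under 0.05, list median -1.72). With the hairpin 11 were tested, of which 2 fell. H3-3A, which encodes the replacement histone H3.3, had the highest mean level of that list, with 871.78, 408.35 and 441.09 TPM in CTRL_CM10 and 121.03, 85.27 and 75.47 in CM10 (limma adjusted p = 0.09026). H2AW and H2AB1 were the genes of that list that fell with the hairpin. H2AW was at 11.31, 5.73 and 22.97 TPM in its controls and H2AB1 at 1.75, 1.27 and 1.27 TPM, and both were listed at 0 in the 3 shZBTB7B libraries (adjusted p = 0.03836 and 0.04456). Both passed the filter only through the 3 controls, so a difference was built into their being tested, and H2AB1, at -1.27, did not lie below the median of all genes (-1.45).

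Of 29 genes for transcription and 3′ processing of histone mRNA tested with CM10, 2 rose and 3 fell. LSM11, a subunit of the U7 particle, rose by 4.63 (SE 1.01, limma adjusted p = 0.004572), and HINFP, an activator of H4 genes, by 3.45 (SE 0.91, adjusted p = 0.01102). Both were also high in shZBTB7B replicates 1 and 3, LSM11 at 55.93 and 89.92 TPM and HINFP at 47.37 and 34.82 TPM. In shZBTB7B replicate 2 they were at 1.05 and 5.8 TPM. SNRPB and SNRPF, shared Sm proteins of small nuclear ribonucleoproteins, fell by 4.03 and 3.96 (adjusted p = 0.008838 and 0.009689). SLBP, which binds the stem-loop, was at 33.54, 12.18 and 24.13 TPM in CTRL_CM10 and at 8.82, 7.08 and 0 TPM in CM10, and did not pass (adjusted p = 0.07122). With the hairpin 0 of 32 rose and 4 fell, among them the uridylyltransferase TUT4 (-3.28, SE 0.68, adjusted p = 0.03836) and the decay factor UPF1 (-3.66, SE 0.89, adjusted p = 0.0433). SLBP was at 48.47, 38.67 and 63.61 TPM in those controls and at 21.50, 15.07 and 0 TPM with the hairpin (adjusted p = 0.1206).

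Of 27 histone chaperones, which carry histones to DNA, 5 rose and 6 fell with CM10, and 2 of those that fell, CHAF1A and HIRA, passed the filter only through the controls. TONSL and MMS22L, partners in a complex that reads new histones behind the replication fork, rose by 6.30 (SE 1.26) and 6.52 (SE 1.18), with limma adjusted p of 0.003471 and 0.003444. TONSL was at 680.41, 770.59 and 799.08 TPM in CM10 and at 92.56, 1.77 and 2.29 TPM in CTRL_CM10. It was also at 674.76 and 431.27 TPM in shZBTB7B replicates 1 and 3, against 5.29 in replicate 2. DAXX, a chaperone of H3.3, fell by 3.43 (SE 0.89, adjusted p = 0.01011), and CHAF1A, a subunit of the assembly factor CAF-1, was listed at 0 in all CM10 libraries (adjusted p = 0.01481). With the hairpin 0 of 27 rose and 2 fell, the FACT subunit SUPT16H (-4.38, SE 1.04, adjusted p = 0.04171) and SUPT6H (-2.98, SE 0.75, adjusted p = 0.04456).

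S-phase genes were called with CM10 in shares near those of all genes. Of 37 tested with CM10, 7 rose and 6 fell, where 13.6% and 18.3% of all genes did, with a list median of -0.56 against -1 for all genes. TIPIN, a replication fork protein, rose by 5.05 (SE 1.04, limma adjusted p = 0.003702) and POLA2, a subunit of DNA polymerase alpha, by 5.20 (SE 1.10, adjusted p = 0.004063). In shZBTB7B replicates 1 to 3, TIPIN was at 184.3, 2.25 and 178.95 TPM and POLA2 at 234.52, 3.17 and 269.95 TPM. PCNA fell by 4.23 (SE 0.94, adjusted p = 0.004783), and TYMS, the enzyme that makes thymidylate, was listed at 0 in all CM10 libraries (adjusted p = 0.009816). TYMS and 3 others of the 6 that fell passed the filter only through the controls. With the hairpin 0 of 43 rose and 1 fell, MCM2 of the replicative helicase (-3.19, SE 0.83, adjusted p = 0.04664), which passed the filter only through its controls. Genes of G2 and mitosis numbered 1 lower of 5 tested with CM10, CDC20 (adjusted p = 0.02243), which entered in the same way, and 0 called of 19 with the hairpin (1 at an unadjusted p under 0.05 in limma).

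Markers of cell types were called in some lists and in others not. Leukocyte markers fell with CM10 for 7 of 11 tested, where 18.3% of all genes fell. Their sums overlapped, at 2937.2, 3382.0 and 3420.4 TPM in CM10 and 1113.1, 4712.9 and 289.3 in controls. Most of the sum in CM10 was LYZ, the gene for lysozyme, whose difference was 2.96 (SE 1.79, limma adjusted p = 0.1899). Fibroblast and endothelial markers fell with the hairpin for 7 of 8, where 11.0% of all genes fell. Their sums were 1565.8 to 3567.4 TPM in the controls and 55.1 to 327.8 TPM with the hairpin. CDH5 and VWF among these 7, and CD3D among the leukocyte markers called with CM10, passed the filter only through the controls. With CM10, 3 of 12 colon epithelial markers and 1 of 6 fibroblast and endothelial markers fell, and 1 of 13 gastric markers rose. Of all genes, 18.3% fell and 13.6% rose with CM10, so these counts say little about the lists. With the hairpin 0 of 11 colon epithelial, 0 of 12 leukocyte and 0 of 9 gastric markers were called in limma (2, 5 and 1 at an unadjusted p under 0.05). Of 2 testis germ cell markers tested with the hairpin, 1 fell, SYCP3, which passed the filter only through the controls. None of the 4 erythroid and 7 smooth muscle markers tested with CM10, or of the 3 and 7 tested with the hairpin, was called in limma, and at an unadjusted p under 0.05 there were 0 and 0 with CM10 and 0 and 4 with the hairpin. In bulk RNA, fewer cells of a type and less RNA per cell cannot be told apart, and the part of other cells in the histone levels was not tested.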

How the data were processed

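Per the labels, total RNA of the 12 libraries was enriched by probe capture. Per the study's methods, the authors used HISAT to align reads to hg19 and RSEM to quantify genes (versions not given in the sources used here). Replicates were not pooled. The deposited values, in 2 tables of 18665 genes, were taken as TPM from their column sums (999999 to 1000000), since no header names the unit. TPM holds no depth, so no counting interval is given. A transcript that takes much of a library lowers all others in it.

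Levels were analysed as log2(TPM + 1), so fold changes are on that scale and understate those of low genes. Genes with at least 1 TPM in at least 3 of 6 libraries were fitted with limma 3.58.1 in R 4.3.3, with group as the only term and a variance trend. Two-sided p-values were adjusted by Benjamini-Hochberg over all genes tested, and those under 0.05 were called. The difference of effects was a limma contrast over all 12 libraries. The fit was also run on simulated normal values. These held no excess of 0 values and no outlying library, so that run does not bear on either. Tables and figures were made in Python 3.11.15 with pandas 2.3.3 and matplotlib 3.10.9.

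Members, the 12 gene lists and the rule for named genes were chosen with earlier results of these data known. The rule names called members, the pair of highest mean level per family, H1-10, members at 0 throughout, and up to 2 called genes per direction of other lists, of which only lists related to histones are given by gene. Values of 1 member, counted in every total, are not reported here. H1-2, H2BC8, H2BC21, H1-7, H1-8, SLBP and the marker genes named were added after their values were seen. Alternatives were quantile normalization, no filter, a pseudocount of 0.1, removal of MTRNR2L genes with rescaling, a replicate block, and leaving out each library.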

Additional observations from a re-analysis of the deposited data

How the results depend on the processing

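The number of members called lower with CM10, 3 with the values as deposited, became 1 with a pseudocount of 0.1, 7 without MTRNR2L genes and 5 with the replicate block, and ranged from 0 to 6 when each library was left out. Over all genes 31.9% were called as deposited and 15.7%, 54.9%, 38.4% and 15.7% to 50.7% in these fits. The cause was not tested. The median of the members with CM10, -2.33, was -3.97 with a pseudocount of 0.1, where that of all genes went from -1 to -1.73. With the hairpin the median, -1.77, was -0.81 after quantile normalization (all genes -0.56) and -2.94 with a pseudocount of 0.1 (all genes -1.99). With the hairpin, 5 members called became 0 after quantile normalization, 0 without a filter and 0 without MTRNR2L genes (5 of 20, 11 of 57 and 9 of 21 members at an unadjusted p under 0.05 in limma, and 0% of all genes called in each), 6 with the replicate block (10.2% of all genes), 6 with a pseudocount of 0.1 (3.42%, against 11.7% as deposited), and 0 to 8 when each library was left out. For the difference of effects 0 members were called in every alternative run, with 1 to 5 at an unadjusted p under 0.05.

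Directions turned for few genes, none of them called. With the hairpin, H4C3 stood at -0.41 with a pseudocount of 0.1 and between -0.34 and 1.70 with a library left out, H2BC5 between -0.04 and 1.75, and H2BC12 between -0.39 and 0.38. In the difference of effects, H2AC6 stood at -0.83 after quantile normalization, -0.52 with a pseudocount of 0.1 and -0.54 without MTRNR2L genes, and H1-10 at -0.21 without MTRNR2L genes. Samples with the same replicate number did not deviate together (correlations across genes from -0.08 to 0.03), so the block has no basis in these data. H2AC6 with CM10, and H3C4, H4C8, H4C14 and H4C15 with the hairpin, were not tested without a control library, because they then missed the filter.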
